A study of Mus musculus with 9 samples.

Results

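Homologous recombination and Fanconi anemia repair genes were followed in regenerating mouse liver. The set holds 37 genes of 43346 listed in the deposited table, chosen by name for the known function of their proteins. It includes the kinases that signal DNA damage to both pathways. This set and the other gene lists were chosen with earlier results of these data known. Shares set beside those of all genes are therefore descriptions and not tests of the lists. All 37 were found under their mouse Ensembl identifiers and all 37 passed the filter on low counts, so that the counts of genes given here cover every member.

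Whole liver was profiled by RNA-Seq in 9 libraries, 3 biological replicates per group, from male mice aged 12 weeks of the strain given as C57/BL6 in the labels and as C57BL/6J in the methods of the study. Whether a 0 h specimen and a remnant came from the same mouse is not given in the sources used here. No allele was altered in any group. The baseline group was liver tissue resected at 0 h from mice that had received vehicle, and the vehicle and NSC groups were the liver remnants taken 40 h after 70% partial hepatectomy. NSC-87877 (NSC) is a small molecule that inhibits the phosphatases SHP2 and SHP1. It was injected 2 times a day at 7.5 mg/kg, from 12 h before surgery, and vehicle mice received saline. Resected tissue of NSC-treated mice was not analysed here, so both remnant groups were compared with the same 3 baseline livers. The drug reaches the whole animal, and the tissue holds every liver cell type, so that fewer cells of a type and less RNA per cell cannot be told apart.

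Homologous recombination repairs broken chromosomes by copying an intact sister molecule: the ends are trimmed to single strands, and these invade the sister and pair with it, a step that needs BRCA1, PALB2 and BRCA2. The Fanconi anemia pathway acts when a replication fork meets a crosslink between the DNA strands, where a core complex attaches ubiquitin to FANCD2 and FANCI and so recruits nucleases and recombination factors. Both pathways work mainly in S and G2 phase. Adult hepatocytes are largely quiescent and enter the cell cycle nearly together after hepatectomy.

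Library totals lay between 31187349 and 33943842 counts at baseline, 27956396 and 42887589 counts with vehicle, and 23997363 and 30201051 counts with NSC, and all levels below are in CPM, read counts scaled to a common library size with TMM factors. Hepatocyte markers such as *Alb* were abundant in every liver, with 96346 to 133000 CPM summed over 8 genes. On the second principal component of all genes tested, NSC replicate 1 lay at -31.0, beside the vehicle livers at -28.1 to -13.4 and apart from the other NSC livers at 32.5 and 54.0. Counts of called genes against baseline with NSC are therefore also given without this liver, and single genes are named where leaving it out ended a call.

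At baseline the members were expressed over a wide range. Per kilobase of gene length, the mean level ran from 0.0063 CPM per kb for *Exo1* to 4.91 CPM per kb for *Nbn*, a ratio of 784. *Exo1* encodes an exonuclease that lengthens the resected strand, and *Nbn* encodes the adaptor of the MRN complex that senses broken ends. At 40 h *Exo1* was still the lowest and *Nbn* the highest member, but the ratio between them was 17.5 with vehicle and 18.3 with NSC. The median member moved from 0.295 CPM per kb at baseline to 1.09 with vehicle and 1.61 with NSC. The plot of levels per liver is in CPM not corrected for length, so it compares livers within a gene.

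**Figure D1:**
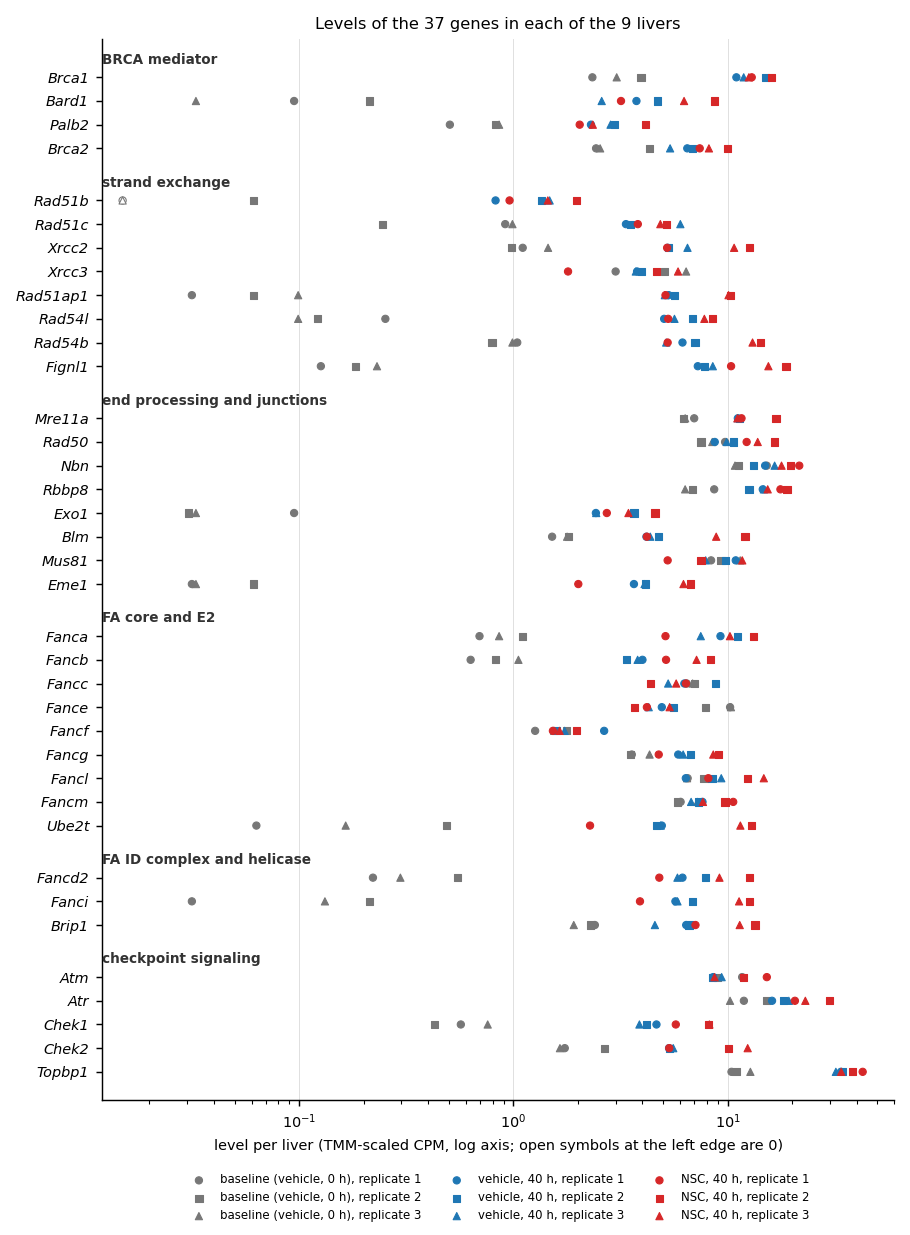
Level of each of the 37 genes in each of the 9 livers (TMM-scaled CPM, log axis), grouped by role, with color for group and symbol for replicate. Baseline livers spread from 0 to 15.2 CPM, and remnants of both groups from 0.825 to 42.7 CPM.

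Comparison of vehicle-treated remnants with baseline shows how the genes moved in regeneration without the drug. In the edgeR quasi-likelihood fit, 25 of the 37 genes rose, 1 fell and 11 were not called at an adjusted p under 0.05. Over all 15024 genes tested, 12.7% were called higher and 11% lower. The log2 fold change passed 1.5 for 19 of the genes that rose, against 5.03% of all genes tested. The median log2 fold change was 1.55 over the members and 0.013 over all genes tested. In 27 members all 3 vehicle livers lay above all 3 baseline livers, as was so for 24.2% of all genes tested.

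Members with fewer reads at baseline had larger rises. All 10 members with a mean under 0.5 CPM at baseline rose, by 4.20 to 6.42 on the log2 scale. Of the 15 members between 0.5 and 5 CPM, 12 rose, and none of the 15 changed by more than 3.39. Of the 12 members at 5 CPM or more, 3 rose (*Mre11a*, *Rbbp8* and *Topbp1*) and *Fance* fell. The 10 members of the lowest class had too few counts at baseline to pass the filter on low counts without the 40 h libraries. A rise in that class was therefore largely fixed in advance. These classes use counts not corrected for gene length and share the baseline with the fold changes, so they are a description with no test.

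**Figure D2:**
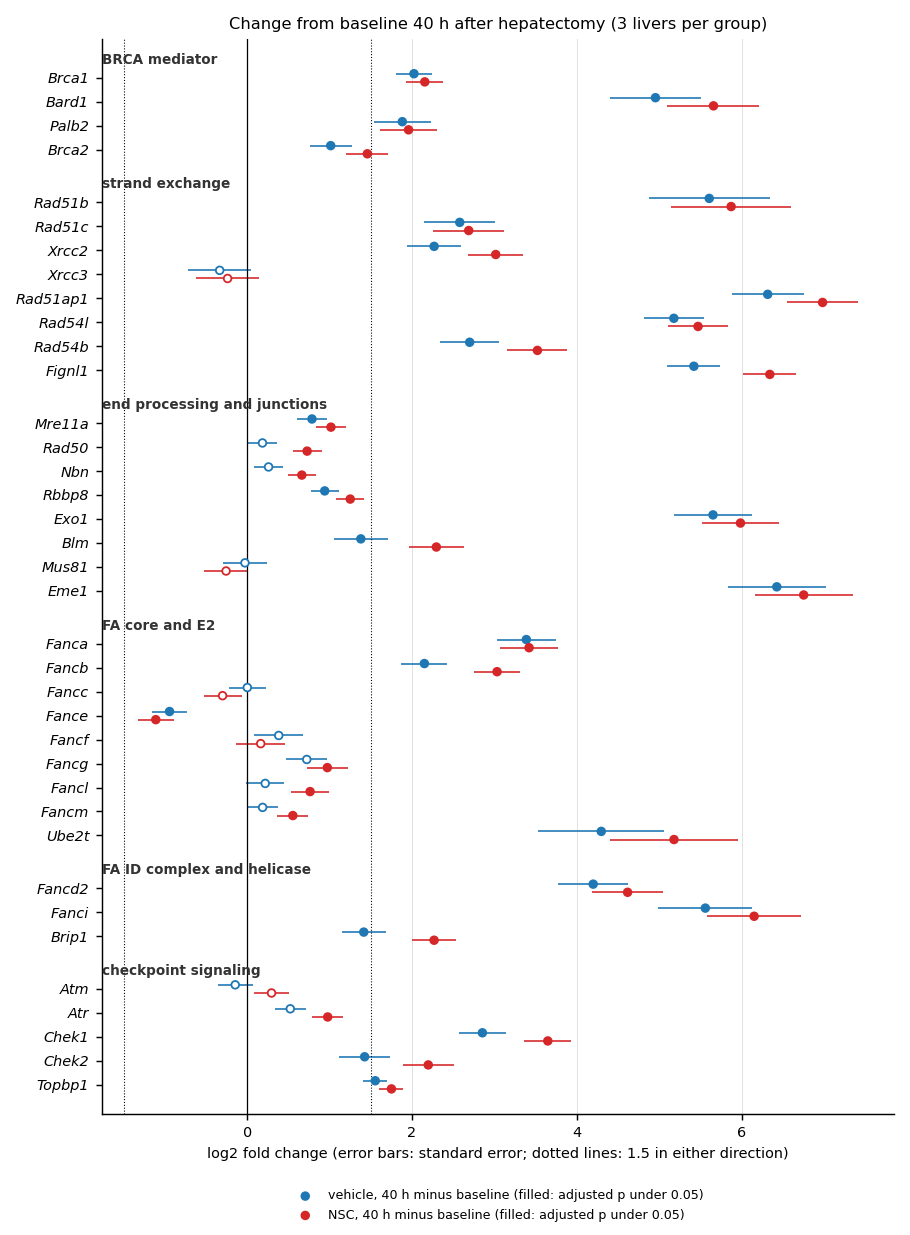
Log2 fold change of each gene in vehicle (blue) and NSC (red) remnants against the same 3 baseline livers, with standard errors, where filled symbols have an adjusted p under 0.05 and dotted lines mark 1.5. With vehicle 25 genes rose and with NSC 31, and *Fance* is the single gene called lower in either.

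All 4 genes of the BRCA mediator group rose with vehicle. *Brca1*, the ubiquitin ligase scaffold that directs broken ends to recombination, was at 2.34, 3.94 and 3.03 CPM in the baseline livers and at 11.0, 15.0 and 11.9 CPM in the vehicle livers. The groups did not overlap, and the log2 fold change was 2.02 (SE 0.22, adjusted p = 0.000138). Its obligate partner *Bard1* was barely detected at baseline, at 0.0947, 0.214 and 0.033 CPM, and reached 3.75, 4.71 and 2.58 CPM, a log2 fold change of 4.95 (SE 0.56, adjusted p = 0.00017). *Palb2*, the bridge between BRCA1 and BRCA2, rose by 1.88 (SE 0.35). *Brca2*, a mediator of strand invasion, rose least in this group, by 1.01 (SE 0.25, adjusted p = 0.0129), and that call was lost without baseline replicate 1 (adjusted p = 0.0595) and without baseline replicate 3 (adjusted p = 0.0591).

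Strand exchange genes rose in 7 of 8 cases, and the median log2 fold change of the group was 3.94. *Rad51ap1*, which promotes strand pairing, had 6 counts in the 3 baseline libraries together and 568 in the vehicle libraries. In CPM it was at 0.0316, 0.061 and 0.0989 at baseline and at 5.30, 5.65 and 5.09 with vehicle, a log2 fold change of 6.31 (SE 0.43, adjusted p = 9.06e-06). *Fignl1*, an AAA ATPase that acts in recombination, went from 0.126, 0.183 and 0.231 CPM to 7.25, 7.77 and 8.52 CPM. Its change of 5.42 (SE 0.32) had the smallest adjusted p of all members, 3.22e-06. *Rad54l* and *Rad54b* encode related motor proteins that drive strand invasion. Per kilobase, *Rad54l* went from 0.0205 ± 0.011 to 0.76 ± 0.12 CPM per kb (SD, n = 3) and *Rad54b* from 0.163 ± 0.023 to 1.06 ± 0.16. Exons of *Fsbp* cover 35.8% of the exonic bases of *Rad54b* on the same strand, so reads there cannot be assigned to one of these genes by position.

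Of *Rad51b*, *Rad51c*, *Xrcc2* and *Xrcc3*, whose proteins form complexes with each other in recombination, 3 rose and 1 was not called. *Rad51b* had 0, 2 and 0 counts at baseline and 125 counts in the 3 vehicle libraries. The ratio of scaled counts was 56.0, with a 95% interval of 15.2 to 468 that covers counting error only. *Xrcc2* rose by 2.27 (SE 0.33, adjusted p = 0.000687) and *Rad51c* by 2.58 (SE 0.43, adjusted p = 0.00155). *Xrcc3* was not called: it was at 3.00, 5.07 and 6.40 CPM at baseline and at 3.78, 3.96 and 3.73 CPM with vehicle, and the vehicle livers lay inside the baseline range (log2 fold change -0.33, 95% confidence interval -1.17 to 0.51).

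Among end processing and junction genes, 5 of 8 rose with vehicle, with changes that differed in size. *Exo1* went from 0.0947, 0.0305 and 0.033 CPM to 2.43, 3.65 and 2.43 CPM, a log2 fold change of 5.65 (SE 0.47). *Eme1*, the partner that makes the nuclease MUS81 active on branched DNA, went from 4 counts in the 3 baseline libraries to 416, a log2 fold change of 6.42 (SE 0.60, adjusted p = 5.14e-05). This was the largest change of a member with vehicle, while *Mus81* itself was not called (8.37, 9.31 and 11.4 CPM at baseline, 10.9, 9.74 and 7.90 CPM with vehicle). *Blm*, the helicase that dissolves joined molecules, rose by 1.38 (SE 0.33) and *Rbbp8*, which encodes the resection factor CtIP, by 0.94 (SE 0.17). Of the 3 genes of the MRN complex, *Mre11a*, its nuclease, rose by 0.79 (SE 0.18, adjusted p = 0.00942). *Rad50*, its ATPase, and *Nbn* were not called, with changes of 0.19 and 0.26.

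The Fanconi anemia core complex had the smallest share of called genes of the 6 role groups. Of its 9 genes, counting the ubiquitin-conjugating enzyme *Ube2t*, 3 rose, 1 fell and 5 were not called, and the median log2 fold change was 0.38. *Fanca* went from 0.695, 1.10 and 0.857 CPM to 9.25, 11.1 and 7.49 CPM, a change of 3.39 (SE 0.36, adjusted p = 0.00011). *Fancb* rose by 2.15 (SE 0.28) and *Ube2t*, which supplies the ubiquitin, by 4.30 (SE 0.77). *Fancl* encodes the ubiquitin ligase of the complex and *Fancm* its DNA translocase. Neither was called, with changes of 0.22 and 0.19, nor were *Fancc* (0.00), *Fancf* (0.38) and *Fancg* (0.72, adjusted p = 0.0542). *Fancg* lay near the threshold and was called higher in 8 of 19 alternatives, with an adjusted p of 0.0319 by DESeq2, 0.0466 with the replicate number as a block and 0.00914 without NSC replicate 1.

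*Fance*, the subunit that joins the core complex to FANCD2, went the other way. Its level was 10.3, 7.87 and 10.4 CPM at baseline and 4.93, 5.60 and 4.28 CPM with vehicle. All vehicle livers lay below all baseline livers, and *Fance* fell by 0.94 on the log2 scale (SE 0.22, adjusted p = 0.0084).

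Downstream of the core complex, all 3 genes rose. *Fanci* went from 0.0316, 0.214 and 0.132 CPM to 5.70, 6.86 and 5.83 CPM, a change of 5.56 (SE 0.57, adjusted p = 0.000128). Its partner *Fancd2* went from 0.221, 0.549 and 0.297 CPM to 6.15, 7.87 and 5.83 CPM, a change of 4.20 (SE 0.42, adjusted p = 9.11e-05). *Brip1*, a helicase that binds BRCA1, was at 2.20 ± 0.26 CPM at baseline and rose by 1.41 (SE 0.27).

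Among the checkpoint genes the effector kinases rose and the apical kinases were not called. *Chek1*, the kinase that ATR activates at stalled forks, went from 0.568, 0.427 and 0.759 CPM to 4.65, 4.17 and 3.87 CPM, a change of 2.85 (SE 0.28, adjusted p = 7.55e-05). *Chek2*, the effector of ATM, rose by 1.42 (SE 0.31, adjusted p = 0.00629). *Topbp1*, which switches ATR on, was at 33.8, 34.3 and 32.0 CPM against 10.4, 10.9 and 12.8 CPM at baseline (log2 fold change 1.55, SE 0.14). *Atr* was at 0.52 (SE 0.19, adjusted p = 0.0609) and *Atm* at -0.15 (SE 0.21). *Atr* lay near the threshold and was called higher in 5 of 19 alternatives, among them without baseline replicate 2 (log2 fold change 0.69, adjusted p = 0.0309), without NSC replicate 1 (0.53, adjusted p = 0.0341) and with the replicate number as a block (0.54, adjusted p = 0.0371).

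Promoters were examined because several of these genes moved together. E2F factors switch on S phase genes through short GC-rich sites, and exact matches to the E2F letters TTTCCCGC, TTTGGCGC and TTTCGCGC were counted on both strands in RefSeq promoters of GRCm38.p6 (250 bases before to 50 after the start). Promoters were at hand for 30 of the 37 genes. An E2F match was found in 6 of the 30, or 20%, against 2.12% of 27025 genes with a promoter and 3.85% of those that were tested. The 6 genes were *Bard1*, *Brca2*, *Chek2*, *Fancg*, *Rad51c* and *Topbp1*, all of which rose with vehicle except *Fancg*. Of the 20 genes with a promoter that rose, 5 had a match and 15 had none. Of the 10 with a promoter that did not rise, 1 had a match. A link between match and rise was not tested. The CHR letters TTTGAA were found in 3 of 30 (10%, against 20.2% of all genes and 14.7% of those tested). The CCAAT letters were found in 18 of 30 (60%, against 41.1% of all genes and 42.9% of those tested). A match is a run of letters and not a measured binding site.

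In 4 of the 6 genes the match lies upstream of the start in RefSeq and also outside the gene as the deposited table places it. These windows are shown for the letters around the match, which is in capitals, 5′ to 3′ on the strand of the gene, and no GENCODE M21 exon overlaps them.
*Bard1*, chr1:71103147-71103222, minus strand: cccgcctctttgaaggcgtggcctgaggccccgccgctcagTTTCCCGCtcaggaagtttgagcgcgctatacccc
*Brca2*, chr5:150522408-150522505, plus strand: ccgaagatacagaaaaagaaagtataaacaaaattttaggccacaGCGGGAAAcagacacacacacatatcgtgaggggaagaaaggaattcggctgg
*Chek2*, chr5:110839786-110839883, plus strand: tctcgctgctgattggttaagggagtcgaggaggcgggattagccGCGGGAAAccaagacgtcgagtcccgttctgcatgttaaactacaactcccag
*Topbp1*, chr9:103305153-103305214, plus strand: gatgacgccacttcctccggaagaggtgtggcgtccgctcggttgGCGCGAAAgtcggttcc
The match begins 209 bases before the RefSeq start in *Bard1*, 168 in *Brca2*, 152 in *Chek2* and 129 in *Topbp1*. Before the start in the deposited table it begins 35, 177, 186 and 17 bases, so the distance depends on the annotation. The first 3 match TTTCCCGC and *Topbp1* matches TTTCGCGC. These 4 genes changed by 4.95, 1.01, 1.42 and 1.55 on the log2 scale with vehicle.

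Because many of these proteins work as partners, the per-length levels of 12 gene pairs were compared within each liver. The *Eme1* to *Mus81* ratio was 0.0049, 0.0085 and 0.0037 at baseline and 0.432, 0.546 and 0.670 with vehicle. The *Bard1* to *Brca1* ratio moved from 0.0531 ± 0.0334 to 0.439 ± 0.098 (SD, n = 3), and the *Fanci* to *Fancd2* ratio from 0.448 ± 0.221 to 1.28 ± 0.09. In each of these pairs the gene that was scarce at baseline came closer to its partner or passed it. The same held for *Rad51c* over *Xrcc3* (0.106 ± 0.081 to 0.709 ± 0.263), *Fanca* over *Fancg* (0.105 ± 0.030 to 0.660 ± 0.105) and *Fancb* over *Fancl* (0.138 ± 0.041 to 0.540 ± 0.147).

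Effector kinases also moved relative to their upstream kinases. The *Chek1* to *Atr* ratio went from 0.253 ± 0.116 to 1.21 ± 0.23 and the *Chek2* to *Atm* ratio from 0.978 ± 0.351 to 2.83 ± 0.09. Within the MRN complex the ratios were lower at 40 h: *Rad50* over *Mre11a* was 1.44 ± 0.11 at baseline and 0.952 ± 0.087 with vehicle, and *Nbn* over *Mre11a* was 4.43 ± 0.58 and 3.09 ± 0.39. The smallest p that an exact permutation test of 3 against 3 livers can give is 0.1, so no test of these ratios was made. For all these pairs the vehicle and baseline livers did not overlap.

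**Figure D3:**
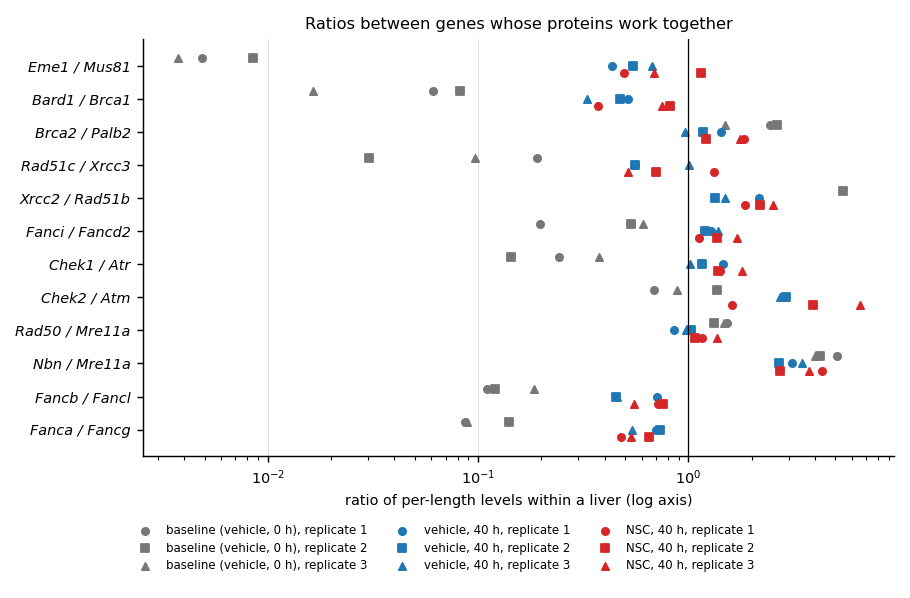
Ratio of per-length levels within each liver for 12 pairs of genes whose proteins work together (log axis, the line marks 1), with color for group and symbol for replicate; *Xrcc2* over *Rad51b* has 1 baseline point because *Rad51b* was at 0 in 2 livers. Baseline *Eme1* over *Mus81* lies between 0.0037 and 0.0085, and the remnants of both groups lie between 0.432 and 1.15.

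The same question was asked of NSC-treated remnants. Against the shared baseline, 31 of the 37 genes rose, 1 fell and 5 were not called, with 22 past a log2 fold change of 1.5. Over all genes tested 18.2% were called higher, 5.38% higher and past 1.5, and 16.5% lower. The median log2 fold change was 2.20 over the members and 0.013 over all genes tested, and without NSC replicate 1 the members' median was 2.48 with 30 higher calls, beside 17.8% of all genes. All 3 NSC livers lay above all 3 baseline livers in 31 members, as was so for 23.9% of all genes tested.

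The 25 genes that rose with vehicle were also called higher with NSC, and *Fance* fell in both. The 2 comparisons share their baseline livers, so agreement between them is not independent support. *Fance* was at 10.3, 7.87 and 10.4 CPM at baseline and at 4.20, 3.67 and 5.36 CPM with NSC (log2 fold change -1.11, SE 0.22, adjusted p = 0.00252). After correction for GC content the fall of *Fance* with NSC was smaller, at -0.62 (adjusted p = 0.0284). The largest change was that of *Rad51ap1*, at 5.13, 10.3 and 10.1 CPM with NSC (log2 fold change 6.98, SE 0.43, adjusted p = 2.63e-06). *Eme1* reached 2.01, 6.69 and 6.22 CPM, *Fanci* 3.90, 12.6 and 11.3 CPM, and *Exo1* 2.73, 4.58 and 3.44 CPM. In these 4 genes NSC replicate 1 was the lowest of the NSC livers, yet far above every baseline liver. *Rad51b* had 127 counts in the NSC libraries, a ratio of 68.1 over baseline (95% counting interval 18.5 to 568).

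Another 6 genes were called higher with NSC and not called with vehicle, which does not show that they differed between the treatments. *Atr* was at 20.6, 29.8 and 23.0 CPM with NSC against 11.9, 15.1 and 10.3 CPM at baseline (log2 fold change 0.98, SE 0.19, adjusted p = 0.00225). *Rad50* rose by 0.73 (SE 0.18), *Nbn* by 0.66 (SE 0.17), *Fancg* by 0.97 (SE 0.25), *Fancl* by 0.76 (SE 0.23) and *Fancm* by 0.55 (SE 0.19). These are small changes, and 5 of the 6 calls were lost after correction for GC content: *Atr* (adjusted p = 0.0906), *Rad50* (0.0936), *Nbn* (0.168), *Fancl* (0.49) and *Fancm* (0.458). The call of *Fancm* was also lost without any 1 of the baseline livers, vehicle replicate 1 or 2, or NSC replicate 1 or 2 (adjusted p = 0.0508 to 0.111), that of *Fancl* without baseline replicate 1 or 3 or NSC replicate 2 or 3 (0.0702 to 0.0905), and that of *Nbn* without baseline replicate 3 (0.0556). With that correction 26 members were called higher, and over all genes tested 12.5% were called higher and 17.9% lower. In vehicle remnants the correction left the 25 higher calls as they were, beside 11.1% of all genes tested called higher and 17.1% lower.

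The 5 genes called in neither comparison were *Atm*, *Fancc*, *Fancf*, *Mus81* and *Xrcc3*. *Atm*, the kinase that answers to double-strand breaks, spread widely with NSC, at 15.2, 11.9 and 8.68 CPM. *Fancc* was at 6.39, 4.38 and 5.75 CPM and *Fancf* at 1.53, 1.97 and 1.64 CPM, both core complex subunits without a known enzymatic activity. Their 95% intervals for NSC against baseline, -0.80 to 0.20 and -0.49 to 0.82 on the log2 scale, bound their changes. Exons of other genes on the opposite strand cover 19.8% of the exonic bases of *Fancc* and 15.0% of those of *Fancf*, and 10.5% to 16% of those of *Fanca*, *Eme1*, *Fancl*, *Rad54l* and *Fanci*. The strand setting of the counting is not given in the sources used here, so reads of the overlapping genes may not be told apart.

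Direct comparison of NSC with vehicle at 40 h asks whether the drug changed these genes. None of the 37 was called by edgeR, where 6 of 15024 genes were (0.0399%, all lower with NSC, and 0% higher). At an unadjusted p under 0.05 there were 13 members, all higher with NSC, beside 9.3% of all genes tested that were higher at that threshold. Fold changes were positive for 33 of 37 members, beside 51.5% of all genes tested, and the median was 0.40 against 0.015. After correction for GC content the median was 0.25 against 0.029, with 34 positive fold changes (53.9% of all genes tested) and 6 members at an unadjusted p under 0.05, all higher (5.21% of all genes tested were higher at that threshold). In 10 members all 3 NSC livers lay above all 3 vehicle livers, as was so for 10.2% of all genes tested. DESeq2 called 4 members higher (*Fignl1*, *Fancb*, *Brip1* and *Chek1*), beside 1.9% of all genes tested.

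*Fignl1* had the largest difference, at 10.4, 18.7 and 15.5 CPM with NSC and 7.25, 7.77 and 8.52 CPM with vehicle. The groups did not overlap, and the log2 difference was 0.92 (SE 0.23, 95% interval 0.43 to 1.42, adjusted p = 0.0907 by edgeR and 0.013 by DESeq2). After correction for GC content it was 0.64 (adjusted p = 0.403). *Blm* had nearly the same difference, 0.92 (SE 0.32, adjusted p = 0.156), but from unlike livers: 4.20, 12.0 and 8.84 CPM with NSC against 4.18, 4.74 and 4.35 CPM with vehicle, so that NSC replicate 1 lay among the vehicle livers. *Fancb* (5.16, 8.28 and 7.16 CPM against 4.0, 3.37 and 3.80 CPM) did not overlap between groups, nor did *Chek1* (5.73, 8.11 and 8.21 CPM against 4.65, 4.17 and 3.87 CPM), with differences of 0.88 (SE 0.25) and 0.79 (SE 0.24). *Brip1* was at 7.08, 13.4 and 11.4 CPM against 6.40, 6.61 and 4.57 CPM, a difference of 0.85 (SE 0.25).

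Other genes had small estimated differences between the treatments, with intervals that bound them. *Brca1* differed by 0.13 (95% interval -0.32 to 0.59), *Topbp1* by 0.20 (-0.11 to 0.50) and *Fance* by -0.17 (-0.64 to 0.31). For *Ube2t* the interval was wide, from -0.45 to 2.22, because the NSC livers were at 2.28, 12.9 and 11.5 CPM and the vehicle livers at 4.93, 4.64 and 4.87 CPM. *Fanca*, *Fanci*, *Fancd2* and *Eme1* likewise had NSC replicate 1 below and NSC replicate 2 above all vehicle livers.

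The edgeR calls between NSC and vehicle depended on NSC replicate 1. This liver was set apart after it was seen to lie beside the vehicle livers. Calls made without it are therefore no independent support for a difference between the treatments. NSC replicate 1 was the lowest of the NSC livers in 28 of 37 members, below all vehicle livers in 12 and above them in 13. NSC replicates 2 and 3 lay above all vehicle livers in 32 and 25 members. The same counts were not made over all genes tested, so they only describe these members. Without NSC replicate 1, 12 members were called higher by edgeR, beside 3.73% of 15390 genes tested: *Xrcc2*, *Rad51ap1*, *Rad54b* and *Fignl1* of the strand exchange group, *Blm*, the core genes *Fancb*, *Fancl* and *Ube2t*, the downstream genes *Fanci* and *Brip1*, and the kinases *Chek1* and *Chek2*. Their differences then ran from 0.75 for *Fancl* to 1.34 for *Ube2t*, with adjusted p between 0.0062 (*Fignl1*) and 0.0448 (*Fancl*). None of the 4 BRCA mediator genes was among them.

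**Figure D4:**
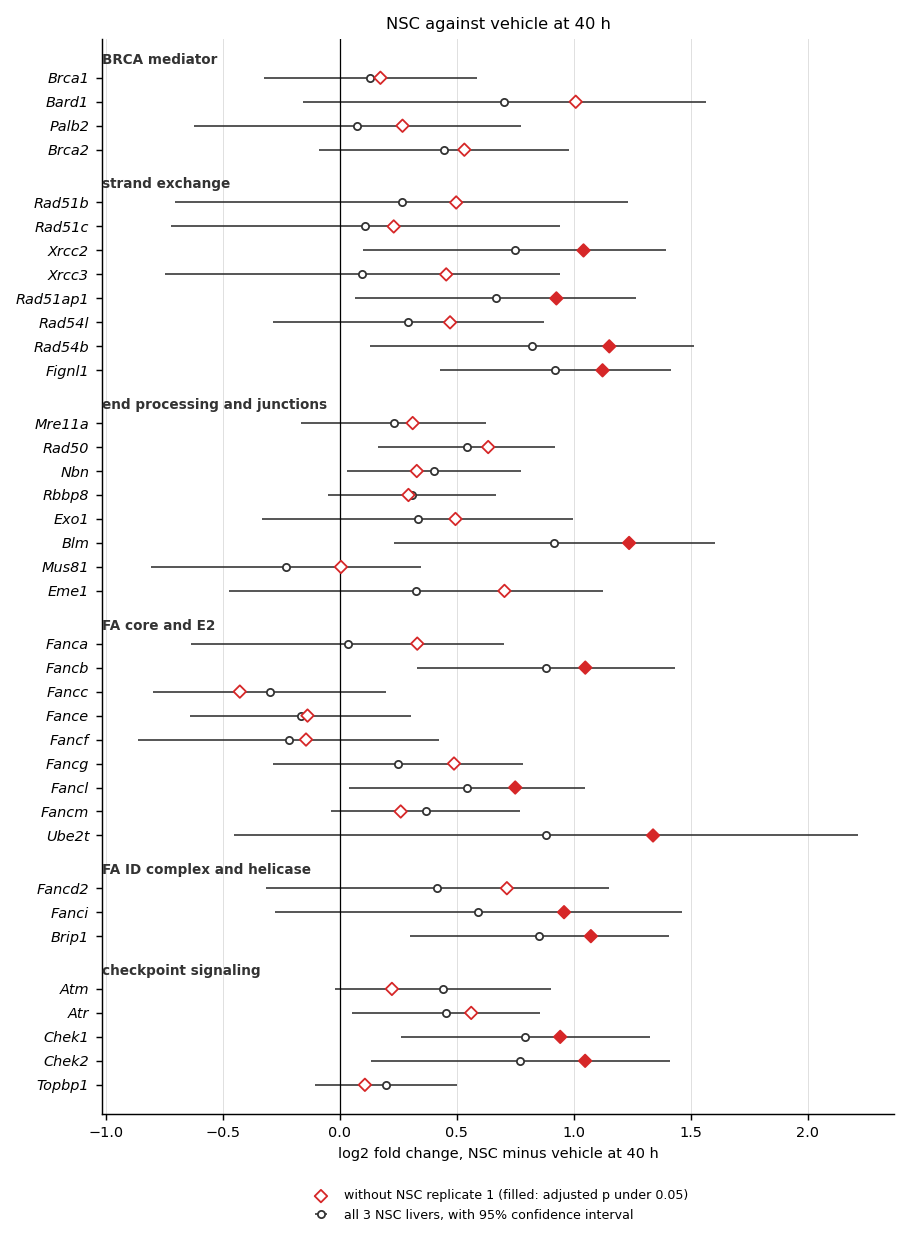
Log2 difference between NSC and vehicle at 40 h for each gene with all livers (black circles, 95% confidence interval) and without NSC replicate 1 (red diamonds, filled where the adjusted p is under 0.05). No gene is called with all livers and 12 are called without that liver, which was set apart because it lay beside the vehicle livers.

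Proliferation genes were examined in the same livers. All 8 reference genes of the cell cycle (*Pcna*, *Ccna2*, *Ccne1*, *Ccne2*, *Mki67*, *Cdk1*, *Top2a* and *Ccnb1*) rose against baseline with vehicle and with NSC, and none was called between the treatments. Without NSC replicate 1, 5 of the 8 were called higher with NSC than with vehicle: *Ccnb1* by 2.01, *Cdk1* by 1.67, *Ccna2* by 1.55, *Top2a* by 0.91 and *Mki67* by 0.90 (adjusted p = 4.46e-05 to 0.0344). For the S phase genes *Pcna*, *Ccne1* and *Ccne2*, the differences were 0.37, -0.0049 and 1.07 with all livers and 0.37, -0.12 and 0.86 without that liver, and none was called. The 8 genes' summed level was 224 CPM in NSC replicate 1, against 849 and 706 CPM in NSC replicates 2 and 3 and 313 to 372 CPM in the vehicle livers. A score for the 37 members, the median of their log2 CPM after subtraction of each gene's average over all 9 livers, was 0.47, 1.15 and 1.05 in NSC replicates 1 to 3, and 0.42, 0.43 and 0.39 in the vehicle livers. The corresponding score of the 8 proliferation genes was 0.92, 3.1 and 2.61 with NSC and 1.56, 1.54 and 1.39 with vehicle. NSC replicate 1 was thus lowest of the remnants in the proliferation score and just above the vehicle livers in the members' score. The part of the cell cycle in the members' values was not tested.

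**Figure D5:**
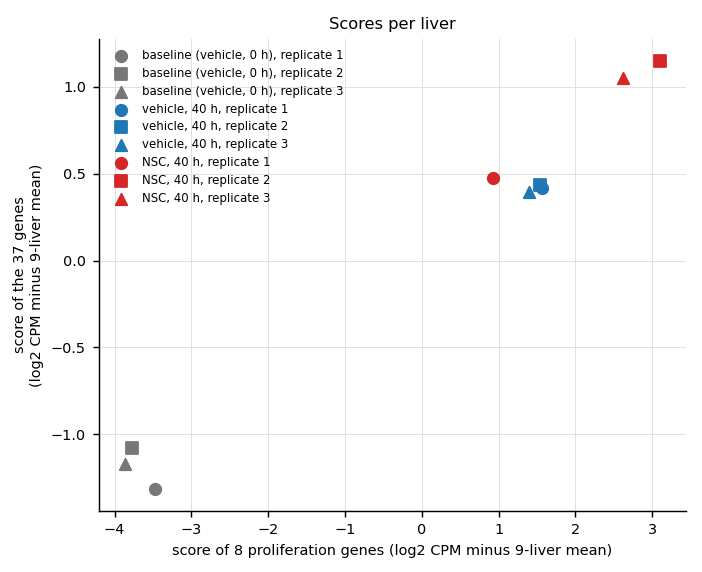
Score of the 37 members against the score of 8 proliferation genes in each liver (median log2 CPM after subtraction of each gene's average), with color for group and symbol for replicate. Baseline livers sit at -1.32 to -1.08 on the member score, vehicle livers at 0.39 to 0.43, and NSC livers at 0.47, 1.05 and 1.15.

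Ratios between partners were also set side by side for the drug. The ratio of *Rad50* to *Mre11a* was 1.16, 1.08 and 1.36 with NSC and 0.857, 1.03 and 0.974 with vehicle, the only 1 of 12 pairs in which the treatments did not overlap. An exact permutation test of 3 against 3 livers would give at best 0.1 for such a separation. So 1 separated pair of 12 is not read as a difference between the treatments. For *Chek2* over *Atm* the NSC livers ran from 1.61 in replicate 1 to 6.57 in replicate 3, around the vehicle values of 2.74 to 2.90. *Eme1* over *Mus81* was 0.777 ± 0.338 with NSC and 0.549 ± 0.119 with vehicle (SD, n = 3), a difference within the spread between livers.

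Among 64 further genes of recombination, the Fanconi pathway and ATR signaling, 26 rose and 1 fell with vehicle (median log2 fold change 0.28), and 31 rose and 3 fell with NSC (median 0.54). The shares higher were 40.6% and 48.4%, beside 12.7% and 18.2% of all genes tested. Lower calls, 1 and 3 of the 64, stand beside 11% and 16.5% of all genes tested. Without NSC replicate 1, 32 rose and 2 fell with NSC, beside 17.8% and 15.9% of all genes tested. *Clspn*, which links ATR to CHK1, went from 0.166 ± 0.120 to 6.58 ± 2.10 CPM with vehicle, a change of 5.26 (SE 0.50). *Rpa2*, a subunit of the protein that coats single strands, and *Hrob*, which loads a helicase in recombination, rose by 1.55 and 4.72 with vehicle. *Rad51d*, which encodes a binding partner of XRCC2, fell in both, by 0.61 with vehicle (adjusted p = 0.013) and 0.57 with NSC (adjusted p = 0.0126). *Recql5*, a helicase that limits recombination, and *Faap100*, a core complex subunit, fell with NSC by 0.53 and 0.81, the call of *Faap100* being lost without NSC replicate 1 (-0.69, adjusted p = 0.0697). *Tipin*, a replication fork protection gene, rose with NSC by 1.93.

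End joining is the route that repairs breaks without a template. Of 14 genes 3 rose and none fell with vehicle, with a median of 0.10, and 3 rose and 2 fell with NSC. The share that rose was 21.4% in each, beside 12.7% and 18.2% of all genes tested, and the 2 that fell stand beside 16.5%, so with NSC the counts were near those of all genes. *Polq*, the polymerase of an alternative end joining route that competes with recombination, rose by 6.64 (SE 0.51, adjusted p = 1.38e-05). *Lig4*, the ligase of classical end joining, rose by 0.70 and *Lig3* by 0.42. With NSC *Polq*, *Lig4* and *Xrcc4* rose (7.24, 1.24 and 0.86), and *Polm* and *Xrcc1* fell by 0.69 and 0.75. Both lower calls were lost without NSC replicate 1 (-0.58, adjusted p = 0.0725, and -0.52, adjusted p = 0.109), and 4 genes then rose. The differences between these lists and the 37 members were not tested.

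Some markers of other liver cells changed in the same remnants. Over all genes tested, 12.7% were called higher and 11% lower with vehicle, and 18.2% and 16.5% with NSC. Without NSC replicate 1 the shares with NSC were 17.8% and 15.9%. Several counts below rest on 1 or 2 genes. Stellate cell markers rose with vehicle in 4 of 6 genes (*Des*, *Col1a1*, *Col1a2* and *Pdgfrb*), summing to 118 to 220 CPM against 79.8 to 85.7 CPM at baseline. None was called with NSC against baseline (67.0 to 117 CPM). In the direct comparison of NSC with vehicle none of the 6 was called (median log2 difference -0.79). Without NSC replicate 1, 3 of the 6 were called lower with NSC than with vehicle, beside 420 of 15390 genes tested. Cholangiocyte markers rose in 4 of 5 tested genes with vehicle and 3 of 5 with NSC (37.8 to 40.7 CPM at baseline, 76.0 to 115 and 79.0 to 122 CPM in the remnants). Macrophage markers were called higher in 2 of 10 genes with vehicle and 4 of 10 with NSC, and their sum was highest in NSC replicate 1, at 596 CPM. Neutrophil markers were called higher in 1 and 3 of 5 tested genes, at sums of at most 21.9 CPM, and *Mpo* had at most 3 counts in every library. Without NSC replicate 1, the calls with NSC were 2 of 5 cholangiocyte genes (*Krt19* and *Krt7* were lost, adjusted p = 0.116 and 0.0608, and *Sox9* gained, 0.0106), 3 of 10 macrophage genes (*Cd68* lost, 0.0648) and 2 of 5 neutrophil genes (*S100a9* lost, 0.0552). Of the other lists, 1 of 6 endothelial, 2 of 6 erythroid, 1 of 5 lymphocyte and 1 of 8 hepatocyte markers tested fell with vehicle, and 0, 2, 1 and 2 fell with NSC. The hepatocyte genes were *Tat* (log2 fold change -1.25 with vehicle and -1.93 with NSC) and *Cps1* (-1.25 with NSC). Without NSC replicate 1, 2 endothelial genes fell with NSC (*Kdr* and *Stab2*). Endothelial markers summed to 173 to 180 CPM at baseline, 110 to 177 CPM with vehicle and 127 to 225 CPM with NSC, erythroid markers to 228 to 328, 106 to 186 and 129 to 231 CPM, and lymphocyte markers to at most 7.68 CPM. The part of these cells in the members' changes was not tested.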

How the data were processed

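Whole liver RNA was sequenced in 9 stranded mRNA libraries. The authors aligned reads with STAR 2.6.1, assigned them to genes with featureCounts of Subread 1.5.1 and deposited raw counts per gene and library. Deposited FPKM values follow from those counts, the gene lengths and the library totals (largest relative difference on recomputing, 4.96e-10) and were used only for that check. The submitters' notes name hg38, whereas gene identifiers and positions are mouse ones: all 37 members are in GENCODE M21, 26 at the same position.

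Counts were analysed with edgeR 4.0.16 in R 4.3.3: TMM factors, filterByExpr (15024 genes), 1 robust quasi-likelihood fit of all 9 libraries with group as the only term, and Benjamini-Hochberg adjustment over all genes in each of 3 comparisons. A gene was called at an adjusted p under 0.05, and "rose" and "fell" refer to such calls. The procedure was tested on simulated data. Per-length levels use the deposited gene length. Tables and plots were made with Python 3.11.15, pandas 2.3.3 and matplotlib 3.10.9. All members could be named. From the other pathway lists the 3 rising and 3 falling genes with the smallest adjusted p in each comparison with baseline were named, from marker lists those called or absent. Members and lists were chosen with earlier results of these data known.

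The labels number the replicates but do not tie a baseline sample to a remnant. No library duplicated another. With 3 livers per group, precision is set by the spread between livers and, for members at a few counts at baseline, by depth. Alternatives were DESeq2 1.42.0, edgeR's exact test, RLE factors, library size only, other filters, other thresholds, fits of 2 groups alone, a replicate block, correction for GC content and each library left out.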

Additional observations from a re-analysis of the deposited data

How the results depend on the processing

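Direction and call of the members held in most alternatives, and no called member reversed. Requiring at least 10 counts in every library removed 11 members, those with fewer than 10 counts in at least 1 library, and left, with vehicle, 15 higher calls, 8 past 1.5 and a median change of 0.88 (log2), and with NSC 20, 11 and 1.14. Correction for GC content lowered the NSC median to 1.87, and to 1.82 with the replicate number as a term. It moved the median of all genes by -0.11 for vehicle against baseline. With 1 library left out the vehicle median was 1.49 to 1.68, the NSC median 2.04 to 2.48, and the calls between NSC and vehicle 0 to 12, the highest in each NSC case without NSC replicate 1. Calls between NSC and vehicle were 4 by DESeq2, 1 by the exact test and 1 with all genes of at least 1 count (*Fignl1* in the last 2). *Fancm* with NSC was lost in 12 of 19 alternatives and *Fancl* in 6. Scaling by library size alone moved the median of all genes by 0.14 for NSC against baseline and 0.13 for NSC against vehicle.

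Same-numbered libraries correlated at -0.048 to 0.134, over 0.1 in 1 of 9 pairs. These values are low, so the numbers were not taken to pair the mice. Yet a library correlated best with its own number, among the 3 libraries of another group, in 13 of 18 cases. Whether the numbers mark a pairing or a batch was not tested. With the replicate number as a block 27 members rose with vehicle and 30 with NSC, 0 were called between the treatments, and the medians were 1.55, 2.17 and 0.36.

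Depth limited *Rad51b*, *Rad51ap1*, *Exo1* and *Eme1* at baseline, where each library held at most 3 counts. In these 4 genes the size of the rise is less certain than its direction.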
